A study of Mus musculus with 9 samples.

Results

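The genes described here are 10 members of the liver's conjugate export and phase I and II detoxification machinery, chosen by name from a table of 24419 gene symbols: Abcc2, Abcc3, Abcc4, Ugdh, Ephx1, Ces1g, Cbr1, Cbr3, Akr1b7 and Aox1. All 10 were rows of the table. Read counts per gene came from the livers of 9 male FVB mice on a normal diet, 3 in each of 3 groups. MODEL1 mice, each 18 weeks old, carried NFE2L2 G31A with CTNNB1 T41A. MODEL2 mice, at 19, 20 and 22 weeks, carried NFE2L2 T80K with CTNNB1 T41A. In both models 20 µg of each plasmid, together with the Sleeping Beauty transposase, which integrates them, was given in 2 ml of saline by hydrodynamic tail vein injection, a delivery that reaches hepatocytes. CTRL mice were 13, 13 and 17 weeks old, and their labels give no injection. The series' design text speaks of liver tumours in both mutant groups, and of controls given T41A beta-catenin beside NFE2L2 in its wild-type form. The labels give neither the promoter of the plasmids nor whether tumour or surrounding liver was sampled. Since the CTRL mice were the youngest and both models carried both plasmids, the effects of NFE2L2, CTNNB1, injection, tumour and age against CTRL cannot be told apart. Every MODEL2 mouse was older than every MODEL1 mouse. Between the models the NFE2L2 variant, age and the tissue sampled therefore cannot be told apart either.

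NFE2L2 encodes NRF2, a transcription factor that KEAP1 holds at a low level by marking it for degradation. G31A and T80K lie in the stretches of NRF2 that KEAP1 binds, and T41A removes a phosphorylation site through which beta-catenin is marked for degradation. Freed NRF2 binds antioxidant response elements in genes that oxidise, reduce, hydrolyse or conjugate foreign chemicals and that pump the conjugates out. In hepatocytes these steps run in sequence: phase I enzymes expose or remove a reactive group, phase II enzymes attach glucuronic acid, sulfate or glutathione, and ABC transporters of the MRP family carry the products to bile or blood.

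Library totals ran from 219504 to 325177 counts. If counts are independent, a count of 0 allows up to 3 counts, worth 9.23 to 13.7 counts per 1000000 before scaling. Rn45s, the ribosomal RNA precursor, took 2.20% to 13.4% of counts, and over 8% in 3 libraries (CTRL replicate 1, MODEL1 replicates 1 and 3). Of the symbols placed on the genome 24.1% overlap an exon of a gene on the other strand, yet they held 74.9% to 82.5% of the counts of placed symbols. The strand setting of the counting is not given in the sources used here. The counts and levels of the members and of the cell markers below may thus not be those of their own sense mRNA. Marker sums may therefore not follow cell content. Alb, a hepatocyte marker, had from 94 (MODEL1 replicate 1) to 337 (CTRL replicate 1) counts in a library. The 8 hepatocyte markers matched of 9 listed were all counted, at a summed 2803 to 3142 CPM (counts per 1000000, scaled by library size and the trimmed mean of M values) in CTRL, 1612 to 2516 in MODEL1 and 1614 to 2203 in MODEL2. Of 5 biliary markers 2 had a count, with sums of 0 in each CTRL library, 7.91 to 11.7 CPM in MODEL1 and 0 to 4.02 in MODEL2, and Krt7, Epcam and Spp1 were at 0 throughout. Of 7 macrophage markers 6 had a count, at 26.3 to 58.8, 64.4 to 95.4 and 28.6 to 37.9 CPM in the 3 groups, with Adgre1 at 0. The 6 endothelial markers summed to 335 to 452, 166 to 233 and 211 to 406 CPM. The part of these shifts in the results below was not tested. In bulk liver, fewer cells of a type and less RNA per cell cannot be told apart.

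Summed, the members were more abundant in both models than in CTRL, and most in MODEL1. Their summed counts in replicates 1, 2 and 3 were 25, 21 and 21 for CTRL, 133, 215 and 161 for MODEL1, and 52, 57 and 61 for MODEL2. All later counts follow this order. On the CPM scale the means were 90.3 ± 7.24 for CTRL, 597 ± 219 for MODEL1 and 215 ± 25.6 for MODEL2 (SD, n = 3 each), with no overlap between any groups. MODEL1 replicate 2 had the highest sum of all libraries, 851 CPM against 470 and 471 in its group. It was the highest MODEL1 library for 8 of the 9 members counted there, all but Cbr3, and its Rn45s share of 2.68% was the lowest of MODEL1. The make-up of the sum also differed. Abcc2 and Abcc3 gave 41.8% and 28.4% of the members' counts in CTRL but 12.2% and 3.34% in MODEL1, while Abcc4 went from 1.49% in CTRL to 35.6% in MODEL1 and 30.0% in MODEL2.

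**Figure D1:**
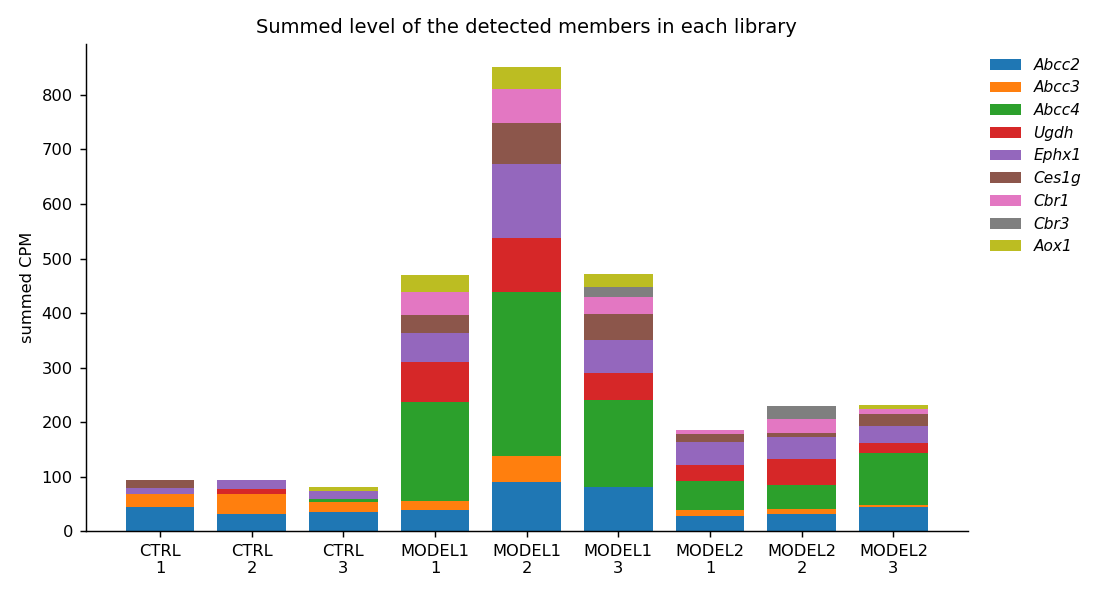
Stacked bars give the summed CPM of the 9 members with any count in each of the 9 libraries, coloured by gene. The CTRL bars lie between 82.0 and 94.9 CPM and are mostly Abcc2 and Abcc3, while the MODEL1 bars reach 470 to 851 and the MODEL2 bars 186 to 231 CPM, with Abcc4 as the largest part in MODEL1.

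Of the 10 members 4 had enough counts for edgeR's quasi-likelihood test over 2639 genes: Abcc2, Abcc4, Ugdh and Ephx1. The other 6 are given by their counts and by ratios of scaled counts with exact 95% intervals, which cover counting error only and not the differences between mice. Abcc4, Ugdh and Ephx1 lay under the minimum count of 10 in every CTRL library and passed the filter only through the models, so that they had to be higher there, and the counts below support nothing about the members as a group. In MODEL1 against CTRL 3 of the 4 tested members were higher and none lower, where 22.8% of all tested genes were called, 11.9% higher and 11.0% lower. In MODEL2 against CTRL 2 were higher and none lower, where 13.3% of tested genes were called, 8.30% higher and 4.96% lower. In MODEL2 against MODEL1 1 was lower, Abcc4, and none higher, where 7.28% of tested genes were called, 3.87% higher and 3.41% lower. Both models are set against the same 3 CTRL libraries, and the comparison between the models uses the same model libraries. None of these comparisons is therefore independent of the others.

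Counted over all 10 members, 6 had every MODEL1 library above every CTRL library (Abcc4, Ugdh, Ephx1, Ces1g, Cbr1 and Aox1). Such separation was found for 18.5% of tested genes and 7.56% of the 14907 symbols with a count. None lay wholly below CTRL, against 17.4% and 5.88%. In MODEL2 4 members lay wholly above CTRL (Abcc4, Ugdh, Ephx1 and Cbr1), against 17.5% of tested genes and 4.98% of symbols with a count. Abcc3 lay wholly below CTRL, as 12.3% of tested genes and 5.41% of symbols with a count did. The 6 members separated in MODEL1 also lay wholly below MODEL1 in every MODEL2 library, against 13.2% of tested genes and 6.17% of symbols with a count, and none lay wholly above, against 13.5% and 4.10%.

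**Figure D2:**
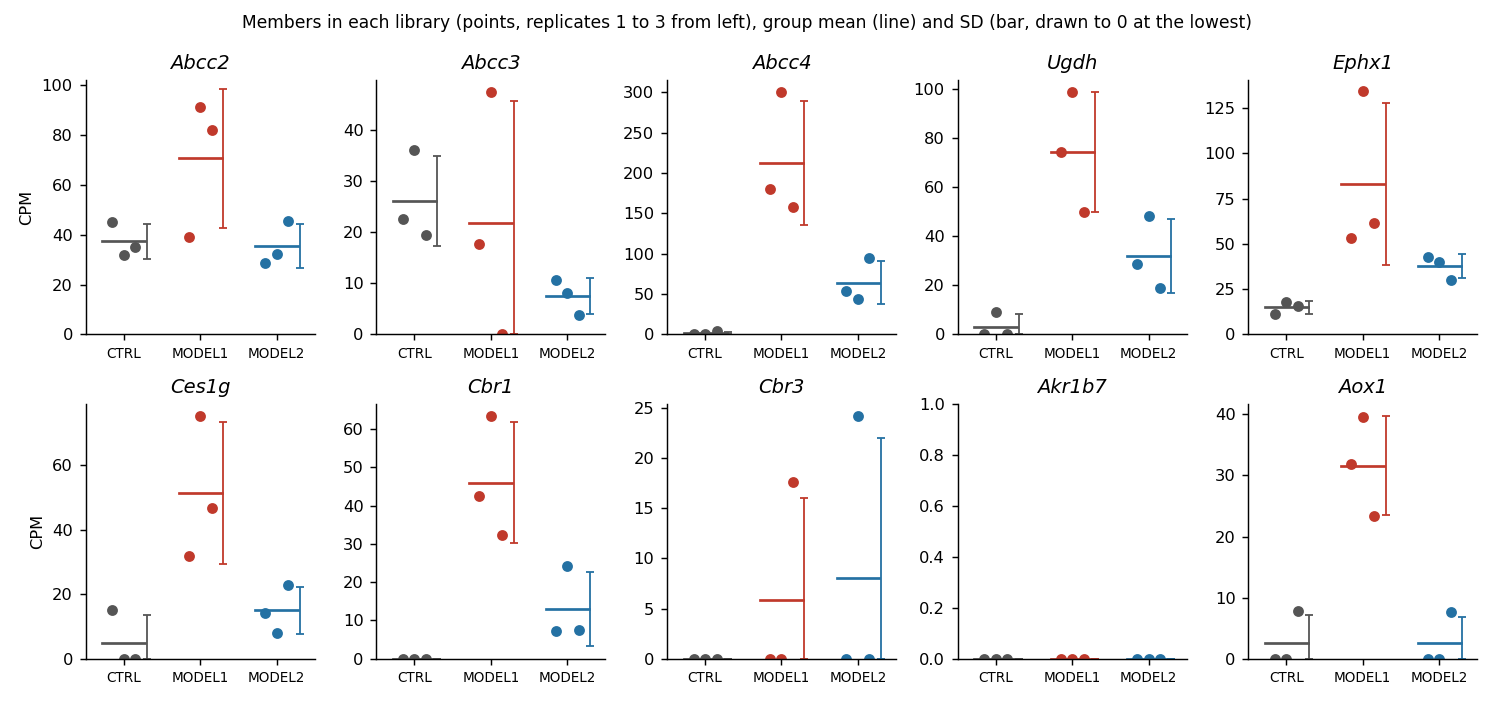
Each panel gives the CPM of 1 member in the 9 libraries (points, replicates 1 to 3 from left), with the group mean as a line and the SD as a bar drawn no lower than 0; the panels have their own axes from 0. Abcc4, Ugdh, Ephx1, Ces1g, Cbr1 and Aox1 stand in 3 steps or in 2, with MODEL1 on top, while Abcc2 and Abcc3 overlap between CTRL and MODEL1 and Akr1b7 is at 0.

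Among the exporters, Abcc4 (MRP4), which moves conjugates, bile acids and cyclic nucleotides across the sinusoidal membrane to blood, had higher ratios to CTRL than Abcc2 and Abcc3. It lies on mm10 chromosome 14, 118482692 to 118706219, minus strand, with 6389 exon bases and no exon on the other strand against its own exons, although Gm49033 and Gm23302 have exons within its introns there. RefSeq gives Abcc4 a pair of start sites. The 250 bases before each are shown because both hold the core of the antioxidant response element, TGACNNNGC, which was searched on both strands. Capitals mark the match, which on the printed strand of the outer window reads GCNNNGTCA, the reverse complement of the core. Its first letters are shared with the AP-1 site TGACTCA.
Abcc4 outer start, chr14:118706220-118706469, minus strand, GRCm38.p6: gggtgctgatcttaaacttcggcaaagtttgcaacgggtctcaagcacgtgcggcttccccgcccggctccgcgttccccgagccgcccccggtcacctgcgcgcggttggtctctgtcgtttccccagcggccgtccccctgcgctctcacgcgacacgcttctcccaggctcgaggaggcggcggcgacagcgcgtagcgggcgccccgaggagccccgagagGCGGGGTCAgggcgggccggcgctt
Abcc4 inner start, chr14:118676932-118677181, minus strand, GRCm38.p6: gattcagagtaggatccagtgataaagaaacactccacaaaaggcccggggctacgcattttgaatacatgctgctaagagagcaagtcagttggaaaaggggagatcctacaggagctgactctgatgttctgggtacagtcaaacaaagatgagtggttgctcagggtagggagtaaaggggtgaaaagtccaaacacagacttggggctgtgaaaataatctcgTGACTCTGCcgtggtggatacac

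The outer match lies 25 to 17 bases before the start and the inner one 23 to 15. Gene counts do not say which start was used. Of all 32851 RefSeq windows of 250 bases before a start, 10.2% hold this core, and 4 of the 10 windows found for 9 members do (both of Abcc4, and those of Ugdh and Abcc2). A match is a description of letters and not a measured binding site. The TCF/LEF core CTTTGAT, the letters bound by the partners of beta-catenin, was in 3.21% of all windows and in 0 of the 10 member windows, which says nothing of sites elsewhere.

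The Abcc4 counts were 0, 0 and 1 for CTRL, 51, 76 and 54 for MODEL1 and 15, 11 and 25 for MODEL2. Its mean CPM was 1.30 ± 2.25 for CTRL, 213 ± 76.7 for MODEL1 and 64.2 ± 26.8 for MODEL2 (SD, n = 3), and no groups overlapped. The ratio of scaled counts was 153 (27.2 to 6088) in MODEL1 against CTRL, with an edgeR adjusted p of 1.3e-07 and the same call under all 17 alternative settings (adjusted p 2.0e-20 to 0.000275). In MODEL2 against CTRL it was 47.8 (8.21 to 1926; edgeR adjusted p = 0.000100). The size of these ratios rests on a single CTRL count: without CTRL replicate 3, which holds it, they were at least 33.5 and at least 10.45, and without CTRL replicate 1 they were 98.5 and 30.7. Of 17 alternatives 16 kept this call, and age as a covariate ended it (log2 fold change 3.13 ± 1.41 in place of 5.16 ± 0.81, adjusted p = 0.368, the highest of a range from 6.3e-09).

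Abcc4 was lower in MODEL2 than in MODEL1, with a log2 fold change of -1.71 ± 0.40 (SE; edgeR adjusted p = 0.0104) and a count ratio of 0.312 (0.224 to 0.428). The highest MODEL2 library, at 94.7 CPM, lay below the lowest MODEL1 library, at 158 CPM. The call was lost without MODEL1 replicate 2 (adjusted p = 0.104), MODEL2 replicate 1 (0.0646) or MODEL2 replicate 2 (0.0564), while its fold change ran from -2.62 to -1.41 over the 17 alternatives (adjusted p 0.00204 to 0.104).

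Abcc2 (MRP2), the canalicular pump that sends glucuronide and glutathione conjugates into bile, did not pass the test in any comparison. It lies on chromosome 19, 43782192 to 43840740, plus strand, with 8532 exon bases. Its upstream window holds 1 core match, 98 to 90 bases before the RefSeq start and inside an exon of GENCODE's gene model, shown for comparison with Abcc4.
Abcc2 match with 10 bases on each side, chr19:43782200-43782228, plus strand, GRCm38.p6: ctcactgggaTGACATAGCattcatctag

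Abcc2 had 12, 7 and 9 counts in CTRL, 11, 23 and 28 in MODEL1 and 8, 8 and 12 in MODEL2, or 37.3 ± 7.01, 70.6 ± 27.9 and 35.4 ± 8.87 CPM (SD, n = 3). MODEL1 replicate 1, at 38.9 CPM, lay within the CTRL range of 31.6 to 45.2, so the groups overlapped. The log2 fold change over CTRL was 0.90 ± 0.48 for MODEL1 (edgeR adjusted p = 0.198) and -0.08 ± 0.52 for MODEL2 (0.939), and that of MODEL2 over MODEL1 was -0.99 ± 0.48 (0.252). The count ratio of MODEL2 over CTRL was 0.938 (0.535 to 1.64). These bounds cover counting error only, so changes within them, and some beyond them, may have been missed at this depth.

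Abcc3 (MRP3), which exports glucuronides and bile acids to blood (chromosome 11, 94343295 to 94392997, minus strand, 5698 exon bases), had too few counts for the test. It had 6, 8 and 5 counts in CTRL, 5, 12 and 0 in MODEL1 and 3, 2 and 1 in MODEL2. MODEL1 replicate 2 alone gave 12 of the 17 MODEL1 counts, and the MODEL1 libraries lay on both sides of CTRL. The count ratio of MODEL1 over CTRL was 0.758 (0.370 to 1.54), but 0.313 without MODEL1 replicate 2 and 1.24 without MODEL1 replicate 3. It was 1.74 without the 3 libraries rich in Rn45s, a setting that leaves MODEL1 replicate 2 as the only library of MODEL1, so its direction changed with the libraries used. In MODEL2 it was 0.296 (0.0968 to 0.771) against CTRL, and with no filter on low counts the edgeR adjusted p was 0.684 (0.383 to 0.684 over the 3 alternatives that test it). Abcc2 and Abcc3 thus gave values near or below CTRL in MODEL2, where Abcc4 rose.

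Ugdh, UDP-glucose dehydrogenase, makes UDP-glucuronic acid, the sugar donor for every glucuronide. It lies on chromosome 5, 65413221 to 65435949, minus strand, with 6752 exon bases. Gm43552 shares exon bases with it on its own strand, so its counts are uncertain by the reads that fall there. Its upstream window holds core matches on both strands, which is why it is shown, the first in the stretch before any GENCODE exon and the other inside the first exon.
Ugdh upstream stretch, chr5:65435950-65436092, minus strand, GRCm38.p6: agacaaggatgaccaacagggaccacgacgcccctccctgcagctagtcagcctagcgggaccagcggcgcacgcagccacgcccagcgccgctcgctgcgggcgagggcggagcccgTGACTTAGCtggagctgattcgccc
Ugdh exon match with 10 bases on each side, chr5:65435918-65435946, minus strand, GRCm38.p6: tcctcaagggGCGTGGTCAtacagttcgg

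Ugdh had 0, 2 and 0 counts in CTRL, 21, 25 and 17 in MODEL1 and 8, 12 and 5 in MODEL2, or 3.01 ± 5.22, 74.3 ± 24.6 and 31.9 ± 15.0 CPM (SD, n = 3). Each MODEL1 library lay above each MODEL2 library, and each MODEL2 library above each CTRL library. The count ratio was 26.7 (7.09 to 225) in MODEL1 against CTRL, with an edgeR adjusted p of 0.000334 and a call under all 17 alternatives (adjusted p 3.0e-06 to 0.0126). The ratio was 17.1 without CTRL replicate 1, 17.5 without CTRL replicate 3, and at least 12.5 without CTRL replicate 2, which holds both CTRL counts.

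In MODEL2 against CTRL the Ugdh ratio was 11.7 (2.92 to 102; edgeR adjusted p = 0.0179), with 7.53, at least 5.49 and 7.68 without CTRL replicates 1, 2 and 3. The log2 fold change was 3.34 ± 0.93, and 5.51 ± 2.13 with age as a covariate, where the call was lost (adjusted p = 0.253) as the SE grew and the fold did not shrink. It was also lost without the 3 libraries rich in Rn45s (0.127), and without CTRL replicate 1 (0.0847), CTRL replicate 3 (0.0715) or MODEL2 replicate 2 (0.0876). Over the 16 alternatives that test it the adjusted p ran from 0.00432 to 0.253. MODEL2 against MODEL1 gave a log2 fold change of -1.20 ± 0.58 (edgeR adjusted p = 0.240).

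Ephx1, microsomal epoxide hydrolase, opens reactive epoxides left by cytochrome P450 enzymes into diols. It lies on chromosome 1, 180976210 to 181020904, minus strand, with 1950 exon bases, some of them shared with Gm36961 on its strand. It had 3, 4 and 4 counts in CTRL, 15, 34 and 21 in MODEL1 and 12, 10 and 8 in MODEL2, or 15.0 ± 3.44, 83.0 ± 44.8 and 37.8 ± 6.65 CPM (SD, n = 3). No groups overlapped, and MODEL1 replicate 2, at 135 CPM, was more than the sum of 53.0 and 61.5 CPM in the other libraries of its group. Ephx1 rose in MODEL1 against CTRL by 2.43 ± 0.57 log2 units (edgeR adjusted p = 0.00277), a call kept under 16 of 17 alternatives and lost with age as a covariate (adjusted p = 0.0754, in a range from 0.00172), where the log2 fold change was as large, 2.63, and its SE grew to 0.93. Ephx1 did not pass edgeR's test in the other comparisons: the log2 fold change of MODEL2 was 1.32 ± 0.60 over CTRL (adjusted p = 0.168) and -1.11 ± 0.49 over MODEL1 (0.199).

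Ces1g is a carboxylesterase that splits ester bonds of lipids and drugs (chromosome 8, 93302369 to 93337308, minus strand, 2388 exon bases). Reads can be shared within the Ces1 gene cluster. It had 4, 0 and 0 counts in CTRL, 9, 19 and 16 in MODEL1 and 4, 2 and 6 in MODEL2, or 5.02 ± 8.69, 51.3 ± 22.0 and 15.0 ± 7.37 CPM (SD, n = 3). MODEL1 lay wholly above both other groups, while MODEL2 overlapped CTRL, where all 4 counts were in replicate 1. The ratio of MODEL1 over CTRL was 9.32 (3.39 to 35.7), that of MODEL2 over CTRL 2.81 (0.853 to 12.0), and that of MODEL2 over MODEL1 0.302 (0.145 to 0.582). With no filter the first gave an edgeR adjusted p of 0.00626, and 9 of the 10 alternatives that test Ces1g called it (0.00261 to 0.0545). The exception was leaving out CTRL replicate 3, where the ratios to CTRL were 6.10 and 1.84. Ces1g lay under the minimum count of 10 in every CTRL and MODEL2 library. Where that filter was kept, Ces1g passed only through MODEL1 and had to be higher there, so these repeated calls add no support.

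**Figure D3:**
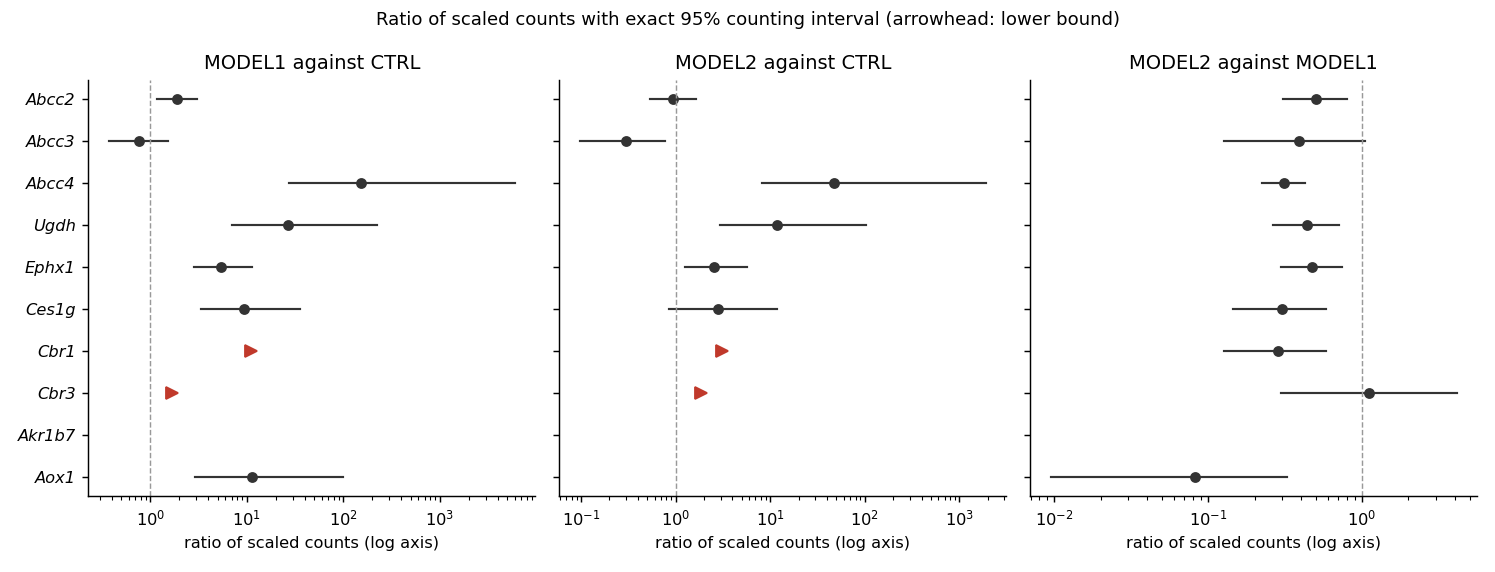
Ratios of scaled counts for the 10 members in the 3 comparisons, on log axes, with exact 95% counting intervals; arrowheads are lower bounds against 3 counts where CTRL had 0. Abcc4 stands at 153 and 47.8 against CTRL, Abcc2 at 1.88 and 0.938 and Abcc3 at 0.758 and 0.296, and in MODEL2 against MODEL1 every member with a ratio except Cbr3 lies below 1.

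Cbr1 and Cbr3 are NADPH-dependent carbonyl reductases that turn ketones, aldehydes and quinones into alcohols, and the 2 genes lie near each other on chromosome 16 (Cbr1 at 93605853 to 93610505, Cbr3 at 93683215 to 93690990, both plus strand, with 2554 and 1254 exon bases). As related genes they can share reads. Cbr1 had 0 counts in each CTRL library, 12, 16 and 11 in MODEL1 and 2, 6 and 2 in MODEL2. Its CPM was 46.0 ± 15.9 in MODEL1 and 13.0 ± 9.69 in MODEL2 (SD, n = 3), where 0 counts over the CTRL libraries allow up to 4.04. It was thus at least 11.0-fold higher in MODEL1 and at least 3.13-fold higher in MODEL2 than the 3 counts CTRL could hold, the second bound being 1.82 without MODEL2 replicate 2. These bounds take the model counts as observed and leave out their counting error, so the true folds may be lower. Leaving out 1 CTRL library lowers the bounds to as little as 7.07 and 2.01, since 3 counts are then set against fewer libraries. MODEL2 was at 0.284 (0.126 to 0.579) of MODEL1, with no overlap, and at 0.166 without MODEL2 replicate 2.

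Cbr1 was called higher in MODEL1 against CTRL in each of the 7 alternatives that tested it (edgeR adjusted p 6.3e-05 to 0.0388, the highest without the libraries rich in Rn45s, where MODEL1 is replicate 2 alone and is assumed to vary like the other groups) and in none of them in MODEL2 against CTRL (0.0596 to 0.231). Cbr1 lay under the minimum count of 10 in every CTRL and MODEL2 library. Where that filter was kept, Cbr1 passed only through MODEL1 and had to be higher there, so these repeated calls add no support. With no filter its edgeR adjusted p was 6.3e-05, and with at least 1 CPM in 3 libraries 6.7e-05. Cbr3 had all 6 of its MODEL1 counts in replicate 3 and all 6 of its MODEL2 counts in replicate 2, and 0 in every other library. Its groups overlapped in every comparison, and the single alternative that tested it gave edgeR adjusted p of 0.494 in MODEL1 and 0.539 in MODEL2 against CTRL.

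Akr1b7, an aldo-keto reductase that reduces lipid aldehydes, had 0 counts in all 9 libraries. This allows up to 4.04 CPM in CTRL, 3.42 in MODEL1 and 3.79 in MODEL2, over each group's libraries together. It lies on chromosome 6, 34412334 to 34423142, plus strand, and is the member with an exon of another gene, Gm13857, against its own exons.

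Aox1, aldehyde oxidase, is a molybdenum enzyme that oxidises aldehydes and nitrogen-containing rings (chromosome 1, 58029931 to 58106413, plus strand, 8690 exon bases). The counts of Aox1 were 0, 0 and 2 in CTRL, 9, 10 and 8 in MODEL1 and 0, 0 and 2 in MODEL2. On the CPM scale it was at 2.60 ± 4.51, 31.6 ± 8.07 and 2.53 ± 4.37 (SD, n = 3), and MODEL1 overlapped neither other group. MODEL1 stood at 11.4 (2.87 to 99.2) times CTRL, but at 7.34 times without CTRL replicate 1 and at least 4.99 times without CTRL replicate 3, which holds both CTRL counts, and MODEL2 at 0.0820 (0.00945 to 0.326) of MODEL1 (0.127 without MODEL2 replicate 1, at most 0.185 without MODEL2 replicate 3). It had too few counts for the main test, and with no filter its edgeR adjusted p was 0.0700 in MODEL1 against CTRL (0.0596 with at least 1 CPM in 3 libraries) and 0.155 in MODEL2 against MODEL1 (0.132).

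Levels of different genes were compared per exon length, as CPM per kilobase of exon. In CTRL, Ephx1 stood highest at 7.69 ± 1.76, followed by Abcc3 at 4.58 ± 1.56 and Abcc2 at 4.37 ± 0.82, which did not differ beyond their spread. In MODEL1 the order was Ephx1 (42.6 ± 23.0), Abcc4 (33.3 ± 12.0), Ces1g (21.5 ± 9.22), Cbr1 (18.0 ± 6.21), Ugdh (11.0 ± 3.64) and Abcc2 (8.28 ± 3.26). Except between Cbr1 and Ugdh, neighbours differed by less than the larger SD of the pair, so this order is not firm. Cbr3 at 4.67 ± 8.09, Abcc3 at 3.81 ± 4.21 and Aox1 at 3.64 ± 0.93 came last of the counted members. In MODEL2 Ephx1 (19.4 ± 3.41) stood above Abcc4 (10.05 ± 4.20) by more than the SD of either, and Cbr3, Ces1g, Cbr1, Ugdh and Abcc2 followed between 6.42 and 4.15 with overlapping spread. On this scale Ephx1 thus had the highest mean of the members in each group, though not firmly in MODEL1. There Abcc4 was above Ephx1 in replicate 1 (28.2 against 27.2) and below it in replicates 2 (47.1 against 69.0) and 3 (24.7 against 31.5). The mean of Abcc4 went from 0.20 ± 0.35 in CTRL, the lowest of the members with a count there, to the place after Ephx1 in both models. The place of Ephx1 rests on its short exon length, which joins all annotated exons of a gene. In CPM alone Abcc2 was highest in CTRL (37.3 beside 15.0 for Ephx1). Abcc4 was highest in MODEL1 (213 beside 83.0) and in MODEL2 (64.2 beside 37.8). How evenly reads cover the exons was not tested.

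**Figure D4:**
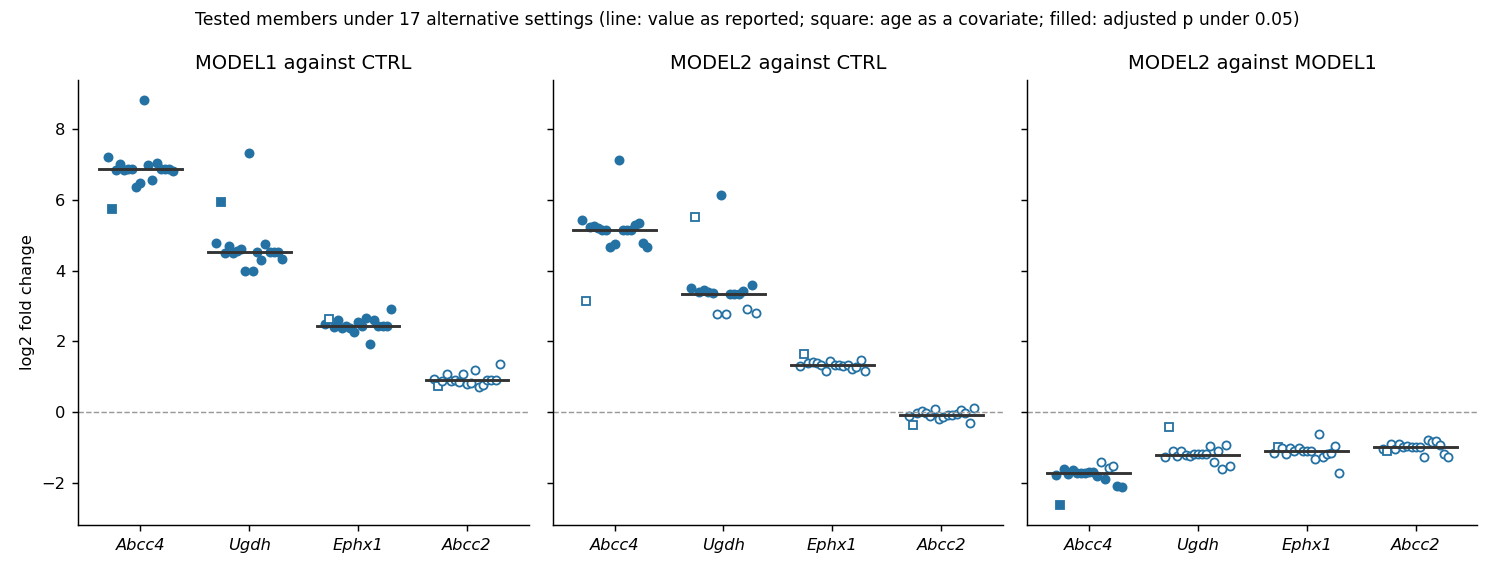
Log2 fold changes of the 4 tested members in the 3 comparisons under up to 17 alternative settings (points, filled where the edgeR or DESeq2 adjusted p was under 0.05; squares are the fits with age as a covariate), beside the reported value (line). All points of Abcc4, Ugdh and Ephx1 keep their sign, the MODEL1 calls of Abcc4 and Ugdh are filled throughout, and Abcc2 lies about 0 in MODEL2 against CTRL.

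The genes around the members were taken from 7 lists of 175 genes that hold other efflux pumps, glucuronidation genes, hydrolases, carbonyl and quinone reductases, aldehyde, alcohol and amine oxidation, sulfation and other conjugation, and regulators. Of these 173 were in the table and 31 were tested. In MODEL1 against CTRL 5 rose and 2 fell, with a median log2 fold change of 0.10 over the 31 beside 0.00 over all tested genes. Those called were 22.6% of the 31, where 22.8% of all tested genes were called. In MODEL2 against CTRL 0 rose and 1 fell (median 0.06), or 3.23% beside 13.3%, and between the models 0 rose and 2 fell in MODEL2 (median -0.18), or 6.45% beside 7.28%. These shares lie near or under those of all tested genes. At an unadjusted p under 0.05 edgeR gave 12, 5 and 8 genes in these comparisons, and DESeq2 called 7, 1 and 1. Of all 2639 tested genes DESeq2 called 581 in MODEL1 and 331 in MODEL2 against CTRL, and 86 higher and 94 lower in MODEL2 against MODEL1. The share of all tested genes at the unadjusted threshold is not given, so counts at that threshold, here and below, support nothing about the lists. The 2 calls between the models became 1 without MODEL2 replicate 1 and 0 without MODEL1 replicate 2, MODEL1 replicate 3, MODEL2 replicate 2 or MODEL2 replicate 3. They also became 0 with library size alone and with age as a covariate, and the 7 calls in MODEL1 became 3 with age.

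Among glucuronidation genes 1 of 4 tested rose in MODEL1, where 11.9% of all tested genes rose. Ugt2b34, a UDP-glucuronosyltransferase that uses the sugar donor made by Ugdh, rose by 3.57 ± 0.66 log2 units (edgeR adjusted p = 0.000330), from 8.13 ± 0.81 to 102 ± 48.8 CPM. In MODEL2 it was at 27.1 ± 17.3 CPM and fell by 1.90 ± 0.55 log2 units against MODEL1 (edgeR adjusted p = 0.0389). Ugt2b34 had 2, 2 and 2 counts in CTRL, 21, 40 and 25 in MODEL1 and 2, 9 and 10 in MODEL2. It passed the filter through MODEL1, the only group with every library above the minimum count of 10, so that it had to be high there. Neither of the 2 tested efflux pumps passed in any comparison by edgeR (1, 0 and 0 at an unadjusted p under 0.05, and 0 by DESeq2). The rest of the 17 listed efflux genes had too few counts for the test, so this result says nothing of changes in them.

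Among hydrolases 1 of 4 tested changed in MODEL1, where 22.8% of all tested genes were called, 11.9% higher and 11.0% lower. Ces3b, a carboxylesterase like Ces1g, fell by 2.65 ± 0.64 log2 units (edgeR adjusted p = 0.00377), from 58.8 ± 23.5 to 8.69 ± 5.59 CPM. Ces3b lay under the minimum count of 10 in every MODEL1 library and passed the filter only through the other groups, so that it had to be lower in MODEL1. Among carbonyl and quinone reductases 1 of 4 rose: Akr1c6, an aldo-keto reductase that acts on steroids, by 2.06 ± 0.67 (0.0284). Its CPM was 19.1 ± 17.3 in CTRL and 83.9 ± 51.5 in MODEL1, where replicate 1, with 7 counts, lay within CTRL. Akr1c6 had 9, 0 and 6 counts in CTRL and passed the filter only through the models, so that it had to be higher there.

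Of 9 tested aldehyde, alcohol and amine oxidising genes 3 rose and 1 fell in MODEL1, where 11.9% of all tested genes rose and 11.0% fell. Adh1, the main liver alcohol dehydrogenase, rose by 2.21 ± 0.55 log2 units (edgeR adjusted p = 0.00517; exon of Gm16559 on the other strand), and Maoa, a mitochondrial amine oxidase, by 2.13 ± 0.63 (0.0155). With 5, 2 and 2 counts in CTRL, 14, 17 and 16 in MODEL1 and 4, 2 and 4 in MODEL2, Maoa passed the filter only through MODEL1. It thus had to be higher in MODEL1 than in CTRL and MODEL2. Maoa was lower in MODEL2 than in MODEL1 by 2.07 ± 0.62 as a difference of log2 levels (log2 fold change -2.07, edgeR adjusted p = 0.0431), with 12.5 ± 3.88 CPM in MODEL2 beside 11.9 ± 6.03 in CTRL. DESeq2 did not call this difference, and edgeR did not with library size alone, with age as a covariate or with the replicate block. Aldh1a1, retinal dehydrogenase, was the third that rose. Adh1 had 14, 2 and 3 counts in CTRL and 27, 43 and 31 in MODEL1. Aldh1a1 had 12, 5 and 4 in CTRL and 15, 42 and 33 in MODEL1. Adh1 and Aldh1a1 passed the filter only thanks to the models, so that they were favoured to be higher there. Adh7, named for an alcohol dehydrogenase of the stomach, fell in MODEL2 against CTRL by 1.10 ± 0.18 (0.000208) and in MODEL1 by 1.52 ± 0.19, from 3311 ± 311 CPM in CTRL; 0610031O16Rik has an exon on its other strand, so these reads cannot be assigned with certainty. None of 4 tested conjugation genes and none of 4 tested regulators passed edgeR's test in any comparison; at an unadjusted p under 0.05 each list had 1 gene in MODEL1 against CTRL and the conjugation list 1 in MODEL2 against CTRL, and DESeq2 called 0.

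**Figure D5:**
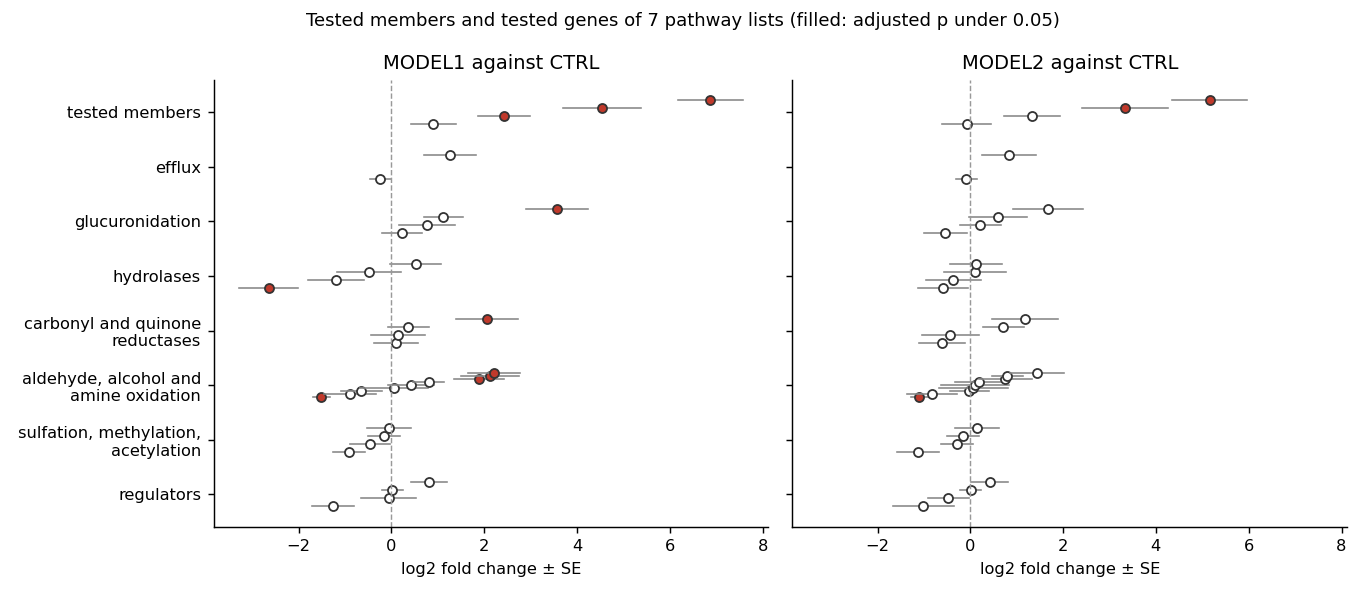
Log2 fold change ± SE of the 4 tested members and of the 31 tested genes of the 7 lists, for MODEL1 (left) and MODEL2 (right) against CTRL; filled points had an adjusted p under 0.05. Abcc4 at 6.87 and Ugdh at 4.54 lie to the right of every listed gene in MODEL1, and in MODEL2 the single filled point outside the members is Adh7 at -1.10.

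Genes with the pattern most like that of 3 members over the 9 libraries were ranked by Pearson's r of log2 CPM among all tested genes, as a description without a test, since the libraries share their groups. For Abcc4 these were A930009A15Rik, Gse1 and Ttc27 (likeness of 0.985, 0.983 and 0.978). For Ugdh they were Lrrc59, Spag17 and Cd163 (0.971, 0.963 and 0.963), and for Ephx1 Itm2b, Fth1, the ferritin heavy chain, and Gm5122 (0.976, 0.973 and 0.958). Gse1, Lrrc59 and Spag17 have exons of other genes on the opposite strand.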

How the data were processed

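The deposited table held raw read counts per gene symbol, 1 column per library, with no normalization. Trimmomatic 0.38, HISAT2 2.1.0, HTSeq 0.11.2 and build mm10 are named per the submitters' processing notes, without roles, annotation or strand setting. Labels' groups were used; nothing was left out. Members were found by symbol and placed with GENCODE M21 (bedtools 2.31.1); upstream windows are RefSeq's, GRCm38.p6.

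Counts were fitted in R 4.3.3 with edgeR 4.0.16 (filterByExpr by group, minimum count 10; trimmed mean of M values; quasi-likelihood F test, 1 coefficient per group, all 9 libraries; two-sided), and the p-values of 2639 genes were adjusted after Benjamini and Hochberg, with a threshold of 0.05. The SE is the log2 fold change divided by the square root of F. Where CTRL held 0 counts, folds are bounds against 3 counts over the group, and leave out the counting error of the model counts. Fits were tested on simulated data. Alternatives were DESeq2 1.42.0, other scaling and filters, 2 groups alone, age, a replicate block and left-out libraries. The labels call the libraries of a group separate samples of individually aged mice.

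The members, lists and tests were chosen with earlier results of these data known. Named beside the members were up to 2 called genes per list and comparison with the largest fold change, and the 3 genes most like Abcc4, Ugdh and Ephx1; Aldh1a1 was named after its values were seen. Intervals and floors describe counting error alone and treat each count as an independent molecule. PCR copies are not independent, so intervals may be too narrow, and floors too low, even for counting error. The true folds may then lie under the printed bounds.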

Additional observations from a re-analysis of the deposited data

How the results depend on the processing

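Library depth limits these genes: 6 of the 10 members were too low for the main test. Without the 3 libraries rich in Rn45s, MODEL1 is replicate 2 alone, the highest of MODEL1 for 8 members, and is assumed to vary like the other groups. In MODEL1 against CTRL 602 genes were called, 299 with age added to the model and 299 when the 3 libraries rich in Rn45s were left out (497 to 636 with 1 library left out). Members called were 3, but 5 with no filter, 5 with at least 1 CPM in 3 libraries and 5 without the libraries rich in Rn45s, since more members were then tested (3 to 5 with 1 library left out; 5 without CTRL replicate 2, MODEL2 replicate 2 or MODEL2 replicate 3). The added calls were Cbr1 and Ces1g, which passed the minimum count, where it was kept, only through MODEL1. Other pathway genes called were 7, and 3 with age (5 to 10 with 1 library left out). In MODEL2 against CTRL 350 genes were called, 72 with age, 210 without the libraries rich in Rn45s and 223 without CTRL replicate 1 (223 to 374). Members called were 2, but 0 with age, 1 with only the 2 groups fitted, where 1 member was tested, and 1 without the libraries rich in Rn45s (1 to 2 with 1 library left out). Pathway genes called were 1, but 2 with no filter, 2 with the 1 CPM filter, 0 with age, 2 with only the 2 groups and 3 without the libraries rich in Rn45s (1 to 2).

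In MODEL2 against MODEL1 192 genes were called, 101 with age, 125 with the replicate block and 62 without the libraries rich in Rn45s (85 to 226). The count was 88 without MODEL1 replicate 2, 111 without MODEL1 replicate 3, and 85, 118 and 98 without MODEL2 replicates 1, 2 and 3. Members called were 1 (0 to 1 with 1 library left out). Pathway genes called were 2, but 1 with DESeq2, 0 with library size alone, 1 with no filter, 0 with age, 0 with the replicate block and 0 without the libraries rich in Rn45s (0 to 2). The cause was not tested where none is given. Abcc2 in MODEL2 against CTRL, not called in any of its 16 alternatives, had a log2 fold change of -0.08 that turned to 0.037 with library size alone, 0.10 without the libraries rich in Rn45s, 0.083 without CTRL replicate 1 and 0.065 without MODEL2 replicate 1 (-0.30 to 0.083 with 1 library left out). Library size alone shifted the median log2 fold change of all tested genes from 0.00 to 0.14 and 0.11 for the models over CTRL, and the share of calls that were higher from 52.0% to 62.7% and from 62.6% to 72.8%; the same members were called.

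The labels' replicate numbers were not taken as pairs, since deviations of same-numbered libraries from their group means correlated at -0.121 to 0.0103. The replicate block changed no member's call. Settings for the pathway genes were chosen after seeing the data.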

Other observations

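Of the listed genes 122 had counts but too few for the test. In MODEL1 23 of them lay wholly above CTRL (18.9%, where 7.56% of symbols with a count did) and 7 wholly below (5.74%, where 5.88% did). In MODEL2 5 lay wholly above CTRL (4.10% beside 4.98%) and 6 wholly below (4.92% beside 5.41%). The shares set beside these include the 2639 tested genes. Of those, 18.5% lay wholly above and 17.4% wholly below in MODEL1, and 17.5% and 12.3% in MODEL2. The shares among untested symbols alone are therefore lower than those printed and are not given here, so these pairs are not of like genes. The genes below were picked after their values were seen, in both directions. Nqo1, the quinone reductase often used as a marker of NRF2 activity, had 0 counts in each CTRL library, 2, 4 and 6 in MODEL1 and 0, 4 and 0 in MODEL2, or 13.5 ± 5.62 CPM in MODEL1 and 5.37 ± 9.29 in MODEL2 (SD, n = 3). Ugt1a1, which conjugates bilirubin, had 2, 0 and 0 counts in CTRL, 3, 23 and 18 in MODEL1 and 1, 0 and 0 in MODEL2. It shares exons with the other Ugt1a genes on its strand, and Gm20528 has an exon on the opposite one, so its counts cannot be assigned to it with certainty. Sult2a8, a sulfotransferase, had 11, 2 and 8 counts in CTRL, 0 in each MODEL1 library and 6, 2 and 0 in MODEL2. Inmt, an N-methyltransferase, had 10, 2 and 8, then 0, 2 and 0, and 4, 0 and 1. Dcxr, a dicarbonyl and xylulose reductase, had 5, 2 and 7, then 2, 0 and 0, and 2, 4 and 5. Like Abcc2, Ugt1a1 had its lowest MODEL1 value in replicate 1, which lay close to CTRL in both genes.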
